A study of Mus musculus with 2 samples.

Results

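Heat shock proteins and their J-protein partners were compared between 2 poly(A) RNA libraries of mouse medullary thymic epithelium (mTEC), which shows self antigens to developing T cells. Members were the genes whose symbols begin with Hspa, Hspb, Hspd, Hspe, Hsph, Hsp90, Dnaja, Dnajb or Dnajc followed by a digit or the letter a, which gave 72 of 23123 gene symbols. This spelling leaves out Hsp90b1, and it takes in Hspb11 and Hspbap1, which are not chaperones by their known function. Both libraries came from wild-type B6 mice with no treatment named in the labels. The mTEChi library held cells sorted for high and the mTEClo library cells sorted for low surface MHC class II, each from pooled thymi, with 1 library per group. Reads were paired and 100 bases long in mTEChi but single and 50 bases long in mTEClo, so read layout and sort gate cannot be told apart. No difference could be checked in replicates and no test was made, and every comparison below describes these 2 libraries only.

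Molecular chaperones bind unfolded stretches of proteins and help them fold, refold or be degraded. Hsp70 proteins (Hspa genes) do this in cycles of ATP hydrolysis that J proteins (Dnaja, Dnajb and Dnajc genes) start, and Hsp110 proteins such as Hsph1 reset by releasing the nucleotide. Hsp90 proteins mature kinases and receptors, and small heat shock proteins (Hspb genes) hold clients without ATP. Some members are induced by heat shock factor 1 when proteins unfold in the cytosol, others serve all cells constantly, others work in the endoplasmic reticulum or mitochondria, and some are largely restricted to muscle, testis, neurons or endothelium. Members were sorted into these classes from such background knowledge, but with earlier results of these data known.

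The libraries differed in ways that touch every value below. Whole reads recovered from the values gave about 115000000 reads for mTEChi and 20900000 for mTEClo, and 9.14% against 28.0% of all transcript lines were listed at 0. Medullary epithelial markers were present in both, with Epcam at 198 RPKM in mTEChi and 127 RPKM in mTEClo and Aire at 122 and 15.9 RPKM. RPKM is the number of reads per length of transcript, scaled to the library's total, so that levels can be compared between genes. Markers of other cells were not evenly spread. The 12 fibroblast and pericyte markers summed to 169 RPKM in mTEChi and 834 RPKM in mTEClo and 9 of them were at least 2-fold lower in mTEChi. The 1 that was at least 2-fold higher, the pericyte marker Rgs5, made up 126 RPKM of the mTEChi sum and 49.1 RPKM of the mTEClo sum. The 12 endothelial markers summed to 37.8 and 346 RPKM and all 12 were lower, or 10 without scaling, with no marker of either list at 0. Macrophage and dendritic cell markers went the other way, with 9 of 16 at least 2-fold higher in mTEChi. Of the 16, 12 passed the filter given below. Their sums were 571 and 152 RPKM, of which Lyz2 alone made up 493 and 133 RPKM. Flt3, Xcr1, Clec9a, Siglech and Fcgr1 were at 0 in mTEClo. In mTEChi Clec9a, Siglech and Fcgr1 were at only 0.0976, 0.0981 and 0.0807 RPKM, where a 0 in the shallower mTEClo library says little. Erythroid markers summed to 359.5 RPKM in mTEChi and 5580 RPKM in mTEClo, with 3 of 7 lower and 1 higher. Of 10 B cell markers 4 were higher and 0 lower. Thymocyte markers had 2 of 14 higher and 1 lower and medullary epithelial markers 6 of 10 higher and 3 lower. Among these markers Flt3, Adgre1, Mrc1, Cd79a, Cd3d and Epb42 passed the filter given below through mTEChi only and could only be called higher. Pdgfra, Emcn and Kdr passed through mTEClo only and could only be called lower. In RNA from whole sorted populations, fewer cells of a type and less RNA per cell cannot be told apart.

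Changes are given as log2 of mTEChi over mTEClo after adding 1 RPKM to both. Before that, mTEClo was multiplied by 1.21 so that genes averaging at least 10 RPKM had a median log2 ratio of 0. A change was called at 2-fold among genes averaging at least 0.5 RPKM, which 66 of the 72 members passed. Across all 15590 genes that passed, 9.35% were at least 2-fold lower in mTEChi and 16.1% at least 2-fold higher, with a median change of 0.03. Without scaling these shares were 6.48% and 19.4%. Of the members, 9 were at least 2-fold lower and 3 at least 2-fold higher, and the median of those that passed was -0.09. Without scaling 6 were lower and 4 higher, with a median of 0.14, and with 5 RPKM added in place of 1 the counts were 6 and 1. Most of the lower members belonged to a single class. Of the 10 heat-inducible cytosolic genes, which all passed, 7 were at least 2-fold lower in mTEChi, with a class median of -1.26. Of the other 62 members 56 passed, and 2 of these were lower.

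**Figure D1:**
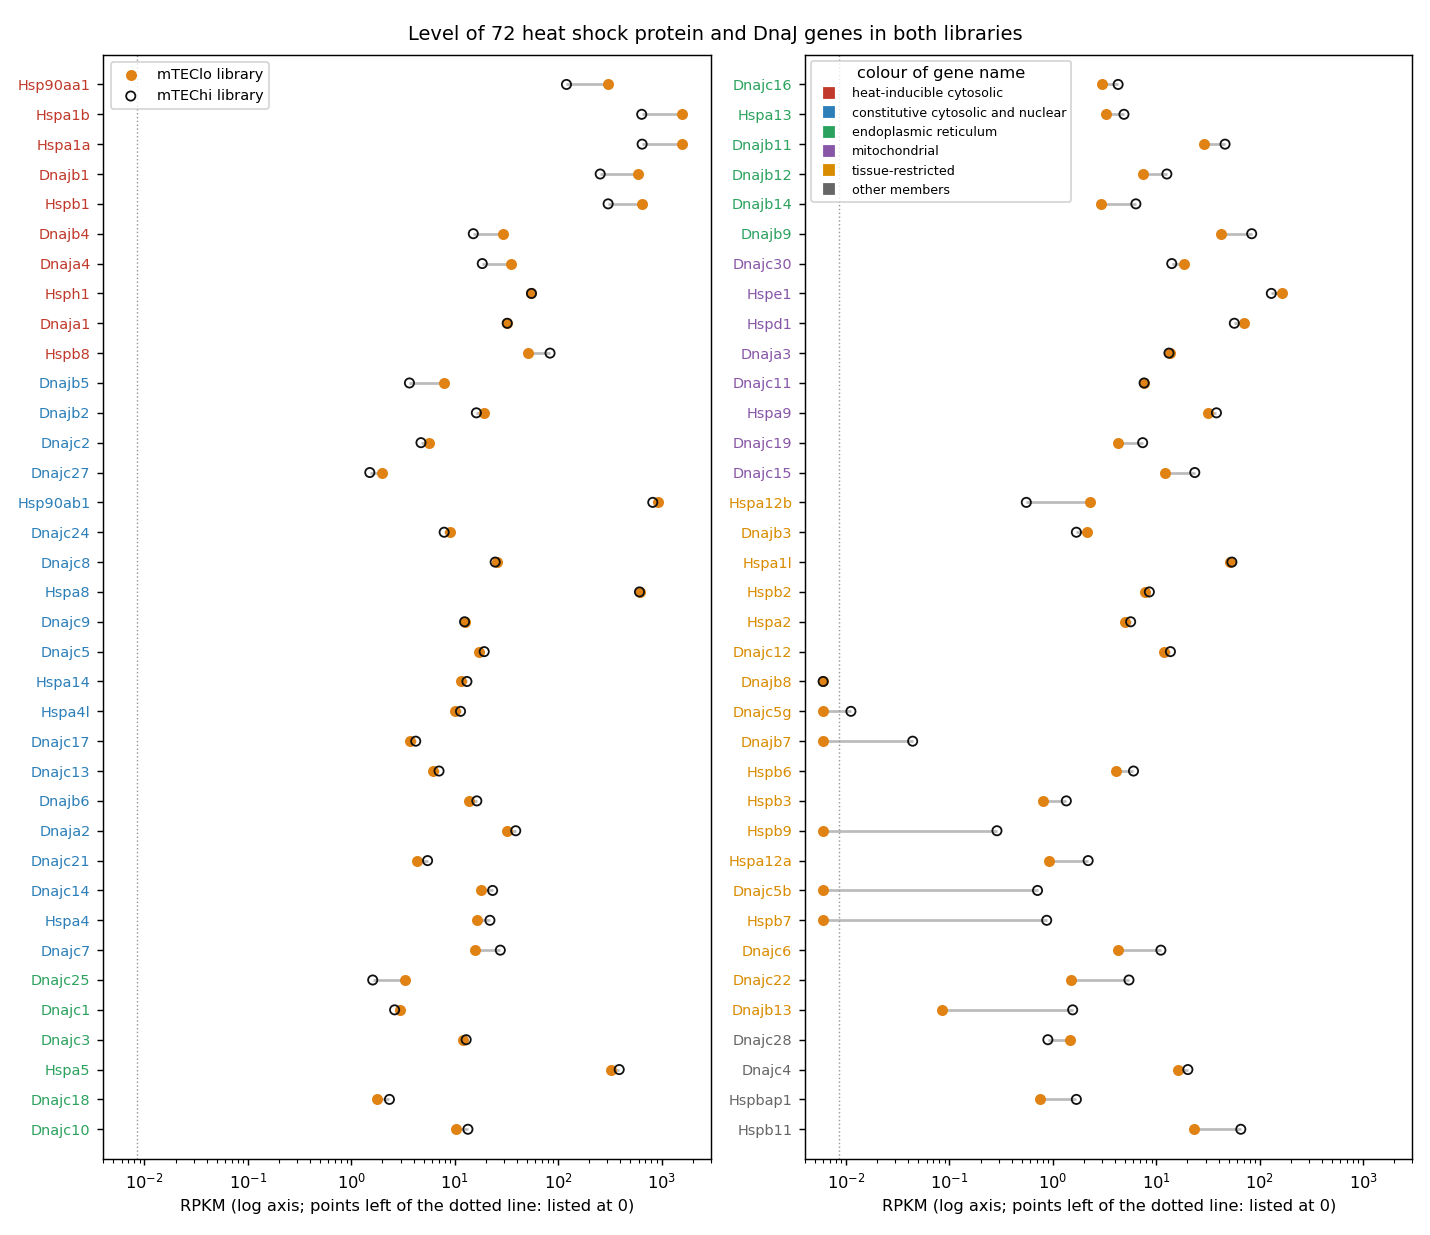
RPKM (log axis) of each of the 72 members in the mTEChi library (open circles) and the mTEClo library (orange), 1 row per gene, with names coloured by class and points left of the dotted line listed at 0. Hsp90aa1, Hspa1a, Hspa1b, Dnajb1 and Hspb1 stand further right in mTEClo, while Hsp90ab1 and Hspa8 hardly move between the libraries.

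The heat-inducible Hsp70 genes were the most abundant members in the mTEClo library. Hspa1a, which encodes the stress-induced cytosolic Hsp70, was listed at 649 RPKM in mTEChi and 1586 RPKM in mTEClo. Its near copy Hspa1b was listed at 644 and 1575 RPKM. In each library the 2 genes were thus at nearly the same level, and both were lower in mTEChi, with log2 changes of -1.56 and -1.56 (2.95-fold each). The 95% counting interval of the scaled ratio of Hspa1a, without the added 1 RPKM, ran from -1.57 to -1.55, which covers counting error only and not the spread between mice or libraries.

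The 2 genes cannot be measured apart here. Of the 50-base windows of the Hspa1a transcript, 66.3% also stand letter for letter in a transcript of another gene, mainly Hspa1b, and 56.5% of its 100-base windows do. The sources used here do not give how the authors assigned reads that match several places, so the pair is best read as 1 signal. Their upstream regions are as alike. Over the 250 bases before the annotated start, 247 (98.8%) are identical. The stretches below run from 150 bases before the start to the base before it, 5′ to 3′ in the direction of transcription. They come from RefSeq on build GRCm38.p6 (the RPKM values were made on mm9). Capitals mark an inverted pair of heat shock factor units, GAANNTTC or TTCNNGAA. They are shown because these members were lower together: Hspa1a at chr17:34972157-34972306 and Hspa1b at chr17:34959239-34959388, both on the minus strand, and the small heat shock gene Hspb1 at chr5:135887769-135887918 on the plus strand.
Hspa1a: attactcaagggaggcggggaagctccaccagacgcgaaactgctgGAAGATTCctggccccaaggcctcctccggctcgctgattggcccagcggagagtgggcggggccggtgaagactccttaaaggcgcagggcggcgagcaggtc
Hspa1b: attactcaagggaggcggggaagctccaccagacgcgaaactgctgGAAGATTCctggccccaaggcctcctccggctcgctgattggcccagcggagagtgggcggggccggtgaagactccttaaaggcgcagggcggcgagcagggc
Hspb1: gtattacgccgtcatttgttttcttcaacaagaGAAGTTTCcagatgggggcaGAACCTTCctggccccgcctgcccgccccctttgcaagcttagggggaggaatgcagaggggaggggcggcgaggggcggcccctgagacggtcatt

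The pair in Hspa1a and in Hspa1b spans the same positions, -104 to -97 from the start, and Hspb1 holds 2 pairs, at -117 to -110 and at -97 to -90. Among members in the RefSeq promoter table, 7 of 9 heat-inducible genes (Hspa1a, Hspa1b, Hspb1, Dnaja1, Dnaja4, Dnajb4 and Hsph1) held GAANNTTC or TTCNNGAA on either strand within 250 bases before a start. The same letters stood in 2 of 5 mitochondrial, 2 of 16 constitutive, 2 of 14 tissue-restricted, 1 of 10 endoplasmic reticulum and 0 of 4 other members. They stand before 12.8% of all 32851 promoters in the table, and before a start of 14.5% of all 27025 genes, some of which have several starts. A longer run of 3 alternating GAA and TTC units, each separated by 2 bases of any kind, contains the pair and stood before 0.466% of all promoters and among members before Hspd1, Hspe1 and Dnajb6. A match is a description of letters only. Of the 7 heat-inducible genes with a pair, Hsph1 and Dnaja1 were within 2-fold, and Dnajb1, which was lower, held none in this window. Hspb8 held none either, and Hsp90aa1 is not in the promoter table. Hspa1a and Hspa1b, whose upstream regions are nearly identical, are both counted among the 7.

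Hspb1, the small heat shock protein Hsp25, was listed at 304.5 RPKM in mTEChi and 643 RPKM in mTEClo, a log2 change of -1.35. A processed pseudogene carries much of its sequence, and 60.4% of its 50-base windows also occur in another gene's transcript. Hspb8, which acts with the cochaperone Bag3 in clearing damaged proteins, was the only heat-inducible member with a change above 0. Its levels were 83.5 RPKM in mTEChi and 51.5 RPKM in mTEClo, a log2 change of 0.42 that stays within 2-fold.

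Hsp90 showed the same split between an inducible and a constant form. Hsp90aa1, the stress-inducible cytosolic Hsp90, was listed at 120 RPKM in mTEChi and 304.5 RPKM in mTEClo, and its change of -1.60 (3.04-fold) was the largest on this scale among the 66 members that passed the filter. Hsp90ab1, the constitutive form, was the most abundant member in mTEChi at 823 RPKM, with 917 RPKM in mTEClo and a change of -0.43. Pseudogenes share 58.5% of the 50-base windows of Hsp90aa1 but 4.49% of those of Hsp90ab1.

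Among heat-inducible J proteins, Dnajb1 (Hsp40), the main partner of inducible Hsp70 in refolding and disaggregation, was listed at 255 RPKM in mTEChi and 597 RPKM in mTEClo. Its log2 change was -1.49 (2.82-fold), and only 0.441% of its 50-base windows occur in another gene. Dnajb4, a close relative of Dnajb1, was listed at 15.1 and 29.1 RPKM (-1.17), and none of its 50-base windows is shared. Both genes therefore measure the lower level in mTEChi with sequence that is nearly or wholly their own. Dnaja4, a type A J protein, was listed at 18.5 and 35.2 RPKM (-1.16), but 51.9% of its 50-base windows also occur in transcripts of Wdr61, and the library kit named in the labels does not keep strand. Dnaja1, the major type A J protein of the cytosol, was at 32.2 and 31.7 RPKM (-0.25; 30.6% of its 50-base windows are shared), and the Hsp110 gene Hsph1 at 55.2 and 54.6 RPKM (-0.25). These 2 genes therefore stood apart from the 7 lower ones, and without scaling the change of each was 0.02.

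**Figure D2:**
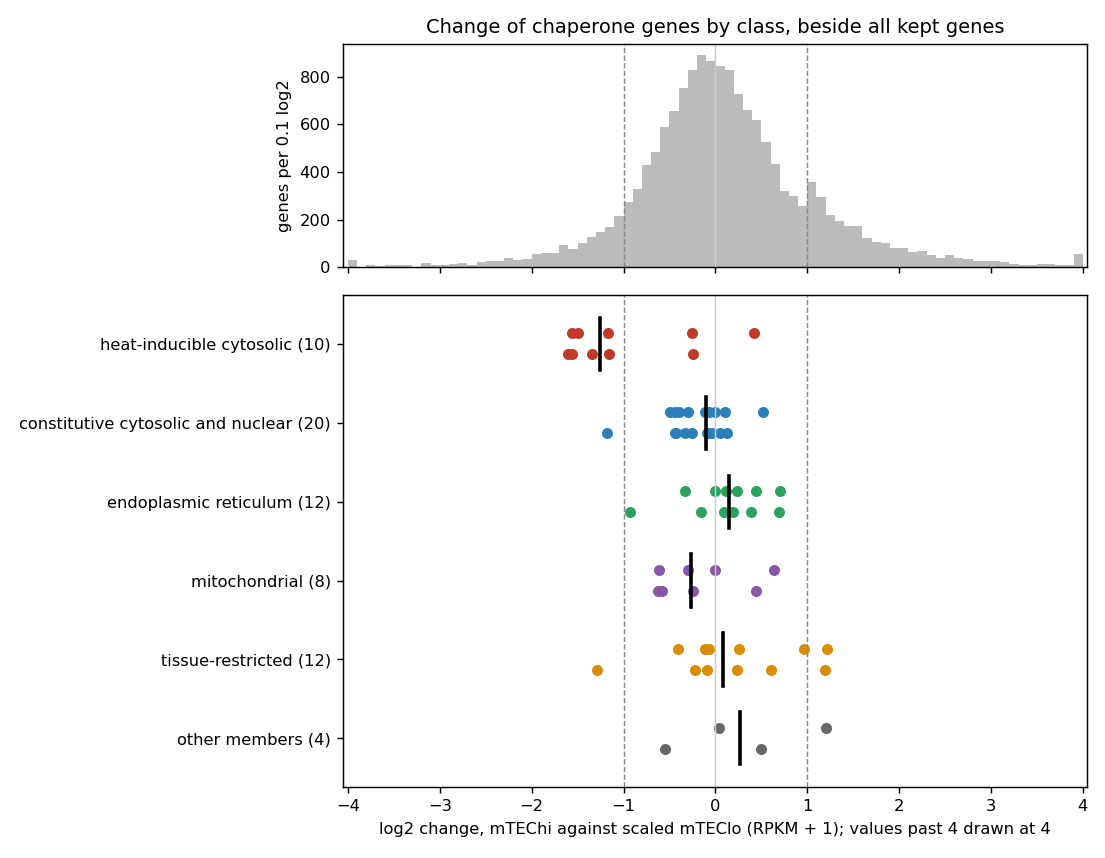
Upper panel, number of genes per 0.1 log2 of change for all 15590 genes averaging at least 0.5 RPKM. Lower panel, the change of each member that passed the same filter by class, with the class median as a black bar, the number of genes in brackets and dashed lines at 2-fold. The heat-inducible median is at -1.26 and the 5 other class medians lie between -0.27 and 0.27.

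Set against all genes, the heat-inducible class had 7 of 10 members lower where 9.35% of kept genes were. The class was drawn up with earlier results of these data known, so this contrast is a description only. Hspa1a and Hspa1b, best read as 1 signal, are both among the 7, and without Hspa1b 6 were lower. All 10 members passed the filter in both libraries taken alone, the lowest at 15.1 RPKM in mTEChi and 29.1 RPKM in mTEClo. Among genes averaging at least 5 RPKM the background was 9.87%. Without scaling, Dnajb4 (-0.90) and Dnaja4 (-0.89) came within 2-fold, so that 5 remained lower, and the class median was -0.99 while that of all kept genes was 0.25. When the 15 members that share over 20% of their 50-base windows with another gene were left out, 4 heat-inducible genes stayed (Dnajb1, Dnajb4, Hsph1 and Hspb8), of which Dnajb1 and Dnajb4 were lower, and the class median was -0.71.

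Ratios within a library need no scaling between libraries. Hspa1a stood at 1.06 times the level of Hspa8, the constitutive cytosolic Hsp70, in mTEChi and at 2.55 times in mTEClo. The Hspa8 level is itself uncertain, since 74.8% of its 50-base windows also occur in other transcripts. For Hsp90aa1 over Hsp90ab1 the ratio was 0.146 in mTEChi and 0.332 in mTEClo, and for Dnajb1 over Dnaja2, a constitutive type A J protein, it was 6.56 and 18.5. Each inducible gene thus made up a larger part of its pair in mTEClo. The ratio of Hspb1 to Hspb8 was 3.65 and 12.5, and that of Hsph1 to Hspa4, the constitutive Hsp110 relative, 2.52 and 3.29. As shares of the summed RPKM of all members, the 10 heat-inducible genes took 44.0% in mTEChi and 64.7% in mTEClo, with Hspa1a and Hspa1b both counted.

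**Figure D3:**
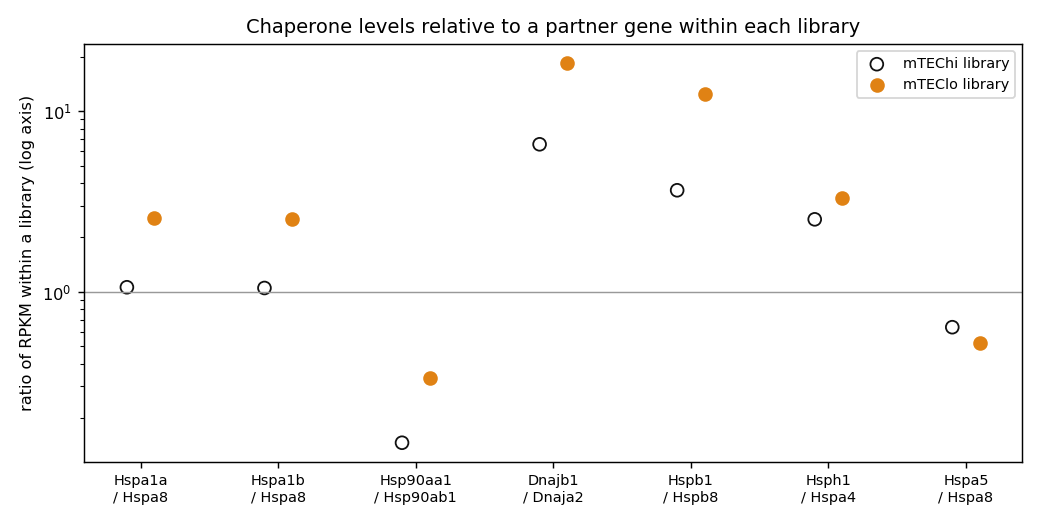
Ratio of 2 genes' RPKM within a library (log axis) in the mTEChi library (open circles) and the mTEClo library (orange), for 6 inducible genes over a partner and for Hspa5 over Hspa8. The 4 ratios of Hspa1a, Hspa1b, Hsp90aa1 and Dnajb1 to their partners are 2.27 to 2.82 times as high in mTEClo, whereas Hspa5 over Hspa8 is 0.637 in mTEChi and 0.521 in mTEClo.

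Immediate early genes, which cells switch on within minutes of stimuli that include tissue dissociation, moved in the same direction as the heat-inducible class. Of 18 such genes 9 were at least 2-fold lower in mTEChi and 0 higher, where 9.35% and 16.1% of all kept genes were. Their median was -1.01, with sums of 3670 RPKM in mTEChi and 6916 RPKM in mTEClo, and none at 0. Without scaling 7 were lower, with a median of -0.74, where 6.48% of all kept genes were lower. Fos was listed at 527 and 1217 RPKM (-1.48), Jun at 323 and 901 RPKM (-1.75) and Socs3 at 75.3 and 273 RPKM (-2.12). Others such as Egr2 (-0.61) and Klf4 (-0.56) were within 2-fold, and only Klf6 (0.12) had a change above 0. Most fibroblast and pericyte markers (9 of 12) and the endothelial markers, given above, were lower too. The part of cell handling, or of other cell types, in the heat-inducible difference was not tested.

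The constitutive cytosolic and nuclear members were nearly level. Of 20 genes, 1 was at least 2-fold lower and 0 higher, and the class median was -0.10, or 0.14 without scaling. Hspa8, which folds new proteins and uncoats clathrin vesicles, was listed at 612 RPKM in mTEChi and 623 RPKM in mTEClo (-0.30). The exception was Dnajb5, a J protein of the Dnajb1 group, at 3.65 and 7.90 RPKM (-1.18), and its change was -0.94 without scaling and -0.75 with 5 RPKM added in place of 1. The other 19 genes lay between Dnajb2 (16.2 against 19.3 RPKM, -0.50) and Dnajc7, a J protein with tetratricopeptide repeats (27.6 against 15.8 RPKM, 0.51). Among them were Dnaja2 (38.9 against 32.2 RPKM), the nucleotide exchange factor Hspa4 (21.9 against 16.6 RPKM) and Dnajc5, the cysteine string protein of secretory vesicles (19.3 against 17.4 RPKM). Levels in this class ran over a wide range, from 1.51 RPKM in mTEChi for Dnajc27 to 917 RPKM in mTEClo for Hsp90ab1.

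Chaperones of the endoplasmic reticulum did not follow the cytosolic heat-inducible genes. None of 12 was 2-fold lower or higher, the class median was 0.15 (0.38 without scaling), and 8 of the 12 had a change above 0. Hspa5 (BiP), the main Hsp70 of the endoplasmic reticulum, was listed at 390 RPKM in mTEChi and 325 RPKM in mTEClo, a change of -0.01, or 0.26 without scaling. Its upstream region is shown for contrast with Hspa1a, at chr2:34771940-34772089 on the plus strand of GRCm38.p6 from RefSeq. Capitals mark the endoplasmic reticulum stress element, CCAAT and CCACG with 9 bases of any kind between them, searched on both strands.
Hspa5: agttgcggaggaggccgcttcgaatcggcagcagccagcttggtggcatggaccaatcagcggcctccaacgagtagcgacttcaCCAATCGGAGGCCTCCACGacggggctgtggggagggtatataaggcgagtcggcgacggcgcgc

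Within 250 bases before a start that element stood in Hspa5 and Dnajc3 among the members and in 0.113% of all promoters. The J proteins that serve BiP differed among themselves. Dnajb9 (ERdj4), which helps in degradation of misfolded proteins and restrains the stress sensor Ire1, was listed at 83.7 against 42.4 RPKM (0.70), and Dnajb11 (ERdj3), a folding cochaperone, at 46.2 against 29.0 RPKM (0.39). Dnajc3 (p58IPK), an inhibitor of the kinase Perk, was at 12.9 against 12.0 RPKM (-0.16), and the disulfide reductase Dnajc10 (ERdj5) at 13.4 against 10.2 RPKM (0.11). None of the 4 was near 2-fold in the main scaling, although Dnajb9 was at 0.97 without scaling. Membrane-bound Dnajb14 was at 6.35 against 2.95 RPKM (0.69) and its relative Dnajb12 at 12.7 against 7.50 RPKM (0.44). Dnajc16 (4.27 against 2.98 RPKM, 0.19), Dnajc18 (2.34 against 1.77 RPKM, 0.09) and the Hsp70-like Hspa13 (4.87 against 3.30 RPKM, 0.24) lay close to 0. On the other side were Dnajc1 (2.62 against 2.94 RPKM, -0.33) and Dnajc25 (1.61 against 3.30 RPKM), whose change of -0.93 was just inside 2-fold and was -1.26 with 0.1 RPKM added in place of 1.

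Mitochondrial members were likewise all within 2-fold, 8 of 8, with a median of -0.27, or -0.02 without scaling. The chaperonin Hspd1 (Hsp60) and its lid Hspe1 (Hsp10), which are transcribed from a shared region in opposite directions, were at 56.8 against 70.6 RPKM (-0.58) and 130 against 164 RPKM (-0.61). The changes of this pair were nearly equal, but 44.8% of the 50-base windows of each gene also occur in other transcripts, and Hspe1 shares some with Hspd1. Hspa9 (mortalin), the matrix Hsp70 that pulls proteins in, was at 38.2 against 31.8 RPKM (-0.01). Among its J proteins, Dnajc15 was at 23.6 against 12.3 RPKM (0.63), Dnajc19 at 7.38 against 4.26 RPKM (0.45) and Dnaja3 at 13.3 against 13.6 RPKM (-0.29).

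Tissue-restricted members were mostly low, and only some passed the filter. Of 18, 12 passed, 2 of these were at least 2-fold higher in mTEChi and 1 lower, and 6 were listed at 0 in mTEClo. Across all genes that passed, 16.1% were higher and 9.35% lower, so the counts of this class lie near the shares of all genes. Zeros were also more frequent in mTEClo over all transcript lines, at 28% against 9.14% in mTEChi. Dnajb13, a J protein of the radial spokes of sperm tails and cilia, was listed at 1.55 RPKM in mTEChi and 0.0838 RPKM in mTEClo (1.21). The latter value stands for about 5 reads where 69.7 would be expected from mTEChi, and the counting interval of the scaled ratio without added RPKM ran from 2.57 to 5.43. With 5 RPKM added in place of 1 the change was 0.36, within 2-fold. Markers of ciliated cells moved with it, 5 of 12 at least 2-fold higher and 0 lower, with sums of 56.1 RPKM in mTEChi and 19.1 RPKM in mTEClo and Mcidas at 0 in mTEClo. Of 12 testis markers 4 were higher and 0 lower, with sums of 19.7 and 3.91 RPKM. In mTEClo 10 of the 12 were at 0. Some of these were near 0 in mTEChi too, such as Tnp1 (0.102 RPKM), Spaca1 (0.0649 RPKM) and Pgk2 (0.0547 RPKM). At such levels a 0 in the shallower mTEClo library says little. The 4 higher ones (Prm1, Prm2, Acrv1 and Ldhc) were all at 0 in mTEClo. They passed the filter through mTEChi only and could only be called higher. Dnajb13 and the ciliated cell markers Dnali1, Mcidas and Tekt1 also passed through mTEChi only. The part of either marker set in the Dnajb13 value was not tested.

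Dnajc22, a membrane J protein, was listed at 5.44 against 1.51 RPKM (1.19, or 0.61 with 5 RPKM added). The neuronal auxilin Dnajc6, which uncoats clathrin vesicles, was just inside 2-fold at 11.1 against 4.28 RPKM (0.97). These 2 genes thus lay on either side of the threshold. Hspa12b, an atypical Hsp70 of endothelial cells, was the lower one, at 0.553 RPKM in mTEChi and 2.31 RPKM in mTEClo (-1.29), beside the endothelial markers of which all 12 were lower. The part of endothelial cells in this value was not tested. With 5 RPKM added in place of 1 the change of Hspa12b was -0.49, and a filter at a mean of 5 RPKM leaves the gene out. Its relative Hspa12a was at 2.19 against 0.910 RPKM (0.60).

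Hspb7, a small heat shock protein of heart and skeletal muscle, was listed at 0.872 RPKM in mTEChi and at 0 in mTEClo, where 41.7 reads would be expected from the mTEChi level. The testis genes Dnajc5b (0.711 RPKM, 11.7 reads expected) and Hspb9 (0.288 RPKM, 3.61 reads expected) were likewise listed at 0 in mTEClo, where a count of 0 allows up to 3 reads. For Dnajb7 and Dnajc5g about 1.05 and 0.302 reads would be expected, so a difference was not detectable at this depth. Dnajb8 was listed at 0 in both libraries. Other muscle-associated members differed little, with Hspb6 at 6.02 against 4.12 RPKM (0.23), Hspb2 at 8.57 against 7.72 RPKM (-0.11) and Hspb3 at 1.35 against 0.797 RPKM (0.26). Beside them, 3 of 12 striated muscle markers were at least 2-fold higher and 5 lower. Their sums were 70.5 RPKM in mTEChi and 139 RPKM in mTEClo, with Tnnt1 at 0 in mTEClo. The higher markers Tnnt1 and Tnnt3 passed the filter through mTEChi only and could only be called higher. The Hsp70 genes that textbooks place in testis were level, Hspa2 at 5.65 against 5.03 RPKM (-0.09) and Hspa1l at 53.8 against 52.2 RPKM (-0.22), with Dnajb3 at 1.69 against 2.12 RPKM (-0.41). The Hspa1l value is uncertain, since 71.4% of its 50-base windows also occur in other transcripts, those of Hspa1a among them.

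Hspb11, which despite its symbol encodes the intraflagellar transport protein Ift25, was listed at 65.7 RPKM in mTEChi and 23.1 RPKM in mTEClo (1.20). Ciliated cell markers, given above, moved in the same direction, and their part in this value was not tested. Its counting interval without added RPKM ran from 1.06 to 1.41, and it was the only one of the 3 higher members at more than 10 RPKM. Hspbap1 (1.69 against 0.748 RPKM, 0.50), Dnajc4 (20.2 against 16.2 RPKM, 0.04) and Dnajc28 (0.894 against 1.46 RPKM, -0.55) were within 2-fold.

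By family, 26 of 28 J proteins of type C passed the filter, of which 1 was at least 2-fold higher (Dnajc22) and 0 lower. Of 13 type B members 3 were lower (Dnajb1, Dnajb4 and Dnajb5) and 1 higher (Dnajb13), and of 4 type A members 1 was lower (Dnaja4). Among 14 Hsp70 and Hsp110 genes, the 3 lower ones were Hspa1a, Hspa1b and Hspa12b. Of 8 genes with an Hspb number, 6 passed, 1 was lower (Hspb1) and 1 higher (Hspb11). For comparison, 9.35% of all genes that passed were lower and 16.1% higher.

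The regulators and partners of these chaperones were examined as 3 lists. Across all genes that passed the filter 9.35% were at least 2-fold lower and 16.1% higher, and no list exceeded either share. Of 35 heat shock factors and cochaperones of Hsp70 and Hsp90, 33 passed the filter. Of these 2 were at least 2-fold lower and 0 higher, with a median of -0.30, or -0.04 without scaling. Bag3, a heat-inducible nucleotide exchange factor, was listed at 25.4 RPKM in mTEChi and 73.6 RPKM in mTEClo (-1.77). Its direction was that of Hspa1a and Dnajb1, whereas its partner Hspb8 was not lower. Unc45b, a myosin chaperone of muscle, was at 0.505 against 1.82 RPKM (-1.09), and Ppid, an Hsp90-binding peptidyl-prolyl isomerase, at 9.48 against 16.2 RPKM (-0.98). Hsf1, the transcription factor that induces the heat shock genes, was at 8.06 against 10.7 RPKM, a change of -0.62 that stayed within 2-fold in every setting tried, and its activity is not read from its RNA.

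Other chaperones outside the symbol rule had 1 of 24 members higher and 1 lower. Serpinh1 (Hsp47), a heat-inducible chaperone of procollagen, was listed at 25.1 RPKM in mTEChi and 265 RPKM in mTEClo (-3.62). Of the 12 fibroblast and pericyte markers, whose sums are given above, 9 were at least 2-fold lower and Rgs5 higher, and their part in this value was not tested. Cryaa, a lens crystallin, was listed at 16.8 RPKM in mTEChi and at 0 in mTEClo, so it could only be called higher. Of 23 genes of the unfolded protein response 1 was at least 2-fold higher, Derl3, a component of degradation from the endoplasmic reticulum (4.48 against 1.29 RPKM, 1.10), and 0 lower, with a median of 0.15 (0.40 without scaling). Sel1l (21.2 against 9.61 RPKM, 0.82) and Edem1 (11.6 against 5.65 RPKM, 0.68) of the same degradation pathway were within 2-fold, as was Herpud1 (0.54). Syvn1 of that pathway went the other way, at 9.72 against 15.8 RPKM (-0.90). Derl1 (-0.07) and Derl2 (0.02) were nearly level, so the pathway did not move as a whole. The list shares Hspa5 with the members.

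**Figure D4:**
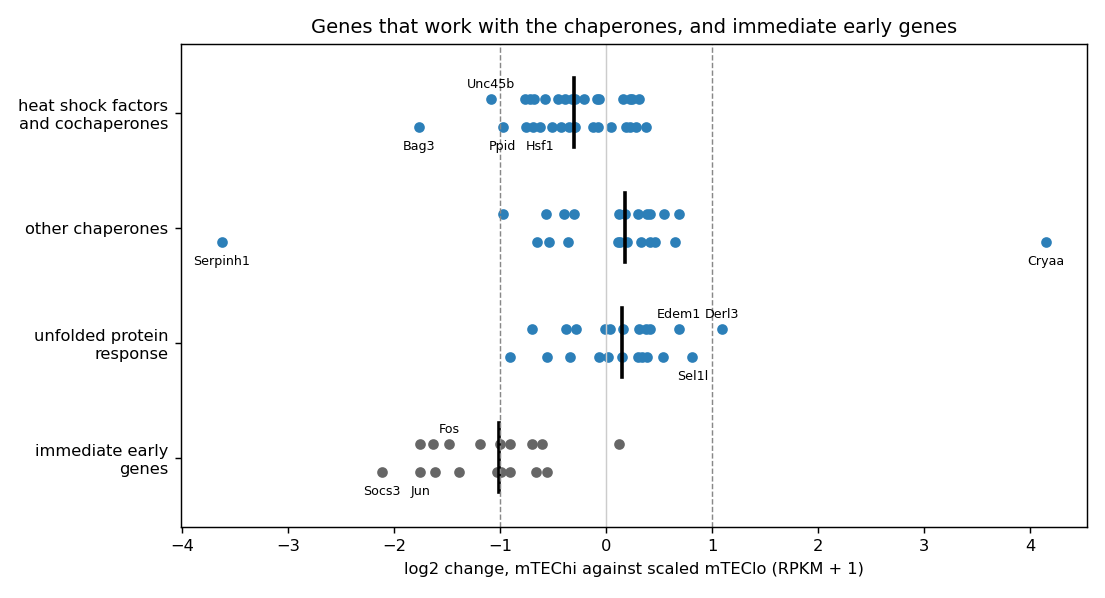
Change of each gene averaging at least 0.5 RPKM in 3 lists of chaperone partners (blue) and in the immediate early genes (grey), with the list median as a black bar and dashed lines at 2-fold. Bag3 and Serpinh1 lie past 2-fold on the lower side, and the median of the immediate early genes is -1.01 against 0.15 for the unfolded protein response.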

How the data were processed

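The deposited files give 1 RPKM value (as the authors computed it) per RefSeq transcript line and library. Bowtie 1.0.0, CASAVA, bedtools and build mm9 are listed, with no roles, in the submitters' processing notes, and the sources used here do not give how multiply matching reads were treated. Of 30794 lines, 30216 took their symbol from RefSeq and 180 from GENCODE, and 398 unnamed lines were left out. A gene's value is its line with the highest mean RPKM. Depth was recovered from RPKM times GENCODE transcript length: 77.7% (mTEChi) and 67.8% (mTEClo) of transcripts with 1 to 10 reads lay within 0.1 of a whole read. Counting intervals (95%, exact binomial) rest on these reads and cover counting error only. The scaling, calls and depth recovery were tried on simulated reads with changes larger than 2-fold. Shared sequence and the difference in read layout were not simulated, so calls near 2-fold and values of sequence-sharing members were not tested. Shared windows are exact matches in GENCODE transcripts. Members, classes and lists were chosen with earlier results of these data known. Values are given for heat-inducible and endoplasmic reticulum members, members past 2-fold, the 10 most abundant, those at 0 in 1 library, and in the partner lists the 4 largest changes in each direction and Hsf1; other genes named were chosen after their values were seen. The markers Emr1, Cd68 and Hbb-b1 were not matched. Tools were pandas 2.3.3, matplotlib 3.10.9, scipy 1.17.1 and numpy 2.4.6 under Python 3.11.15.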

Additional observations from a re-analysis of the deposited data

How the results depend on the processing

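No paired analysis was possible because each group has 1 library, and for the same reason no library could be left out. Of 44 named genes followed through 11 alternatives, no gene past 2-fold changed sign, 11 values came within 2-fold and 7 passed it. Within 2-fold, Hsph1 (0.02), Dnaja1 (0.02), Dnajc3 (0.09) and Hspa5 (0.26) changed sign without scaling. Hspa1a, Hspa1b, Hsp90aa1, Dnajb1, Hspb1 and Hspb11 stayed past 2-fold in each alternative that kept them. The settings that leave out Hspa1b, window-sharing members or genes with several lines were chosen after seeing the data. At a pseudocount of 0.1 RPKM the median of all members was -0.10, of the heat-inducible class -1.28 and of the other members -0.08, and at 5 RPKM -0.07, -1.18 and -0.04. Without scaling they were 0.14, -0.99 and 0.18, so that only the heat-inducible median kept its sign. Summing a gene's lines gave -0.07 for all members and 0.00 outside the heat-inducible class, and averaging them gave -1.27 in that class and -0.04 outside it. With no filter the medians of all and of the other members were -0.07 and -0.01, and with a filter at 5 RPKM -0.12 and -0.08. Without Hspa1b the heat-inducible median was -1.17. Without members sharing over 20% of their windows the 3 medians were -0.04, -0.71 and -0.01, with 4 members lower, 2 of them heat-inducible, since Hspa1a, Hspa1b, Hspb1, Hsp90aa1 and Dnaja4 were left out. Genes with 1 line gave -0.08, -1.42 and -0.01. The 3 higher members became 1 at a pseudocount of 5 RPKM, 5 with summed lines and 1 with a filter at 5 RPKM. Cochaperones past 2-fold numbered 4 at a pseudocount of 0.1 RPKM, and 1 at 5 RPKM, without scaling and with a filter at 5 RPKM. Genes of the unfolded protein response past 2-fold numbered 0 at a pseudocount or filter of 5 RPKM and 2 without scaling, and other chaperones 1 among genes with 1 line. Depth limits the mTEClo values under about 1 RPKM, and with 1 library per group the spread between samples is unknown.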

Other observations

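Transcript lines of 1 gene did not always move alike. Of 18 members with several lines, 15 had line changes within 0.3 log2 of each other. For Dnajb6, a J protein that suppresses protein aggregation, 2 lines were at 16.4 against 13.9 RPKM and 16.3 against 13.9 RPKM, with changes of -0.03 each, while a further line was at 10.5 against 4.28 RPKM (0.90) and another at 6.91 against 4.14 RPKM (0.40). For Dnajb11 the 3 lines gave changes of 0.39, 0.56 and 0.79. Read length and pairing differ between the libraries, and their part in these line values was not tested. These genes were chosen after their values were seen.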
